A study of Rattus norvegicus with 24 samples.

Results

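Rat thoracic spinal cord taken 3 days after clip compression was compared with cord of sham-operated rats, gene by gene, on Affymetrix Rat Genome arrays, whose probes lie mostly near the 3′ end of each transcript. The comparison used the 4 arrays titled injured, 3 days and the 4 arrays titled sham, out of 24 arrays in 6 groups (injured for 1, 3, 7, 14 or 56 days, and sham). It covered 14217 genes, each read by the brightest probe set that carries its symbol alone. All animals were female Wistar rats, operated on under halothane and given an antibiotic (amoxicillin with clavulanic acid) and pain relief afterwards. In the injured groups a laminectomy exposed T6 to T8 and an aneurysm clip with a closing force of 35 g was held on the cord at T7 for 1 min, which gives a moderate to severe contusion and compression. The labels give the T7 cord as the tissue in all groups, at the lesion epicentre, and RNA was extracted from each animal on its own, so each array stands for 1 rat and n was 4 in every group. The labels repeat the clip text for the sham samples too, while the study's supplement calls the sham rats laminectomized. The methods list sham rats for each time, but 1 group of 4 sham arrays was analysed here, and neither labels nor methods say on which day those cords were taken.

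Compression of the cord crushes cells and vessels at the site, lets plasma and red cells into the tissue, and draws in neutrophils first and blood monocytes after them, while resident microglia leave their resting state. Astrocytes around the lesion turn on a reactive programme, in part through IL-6 family cytokines and STAT3, and cut neurons turn on growth-associated genes through AP-1 factors such as Jun and Atf3. In the usual account the third day falls between the first wave of killing and the later phases of macrophage clearance and scar formation. In these arrays the monocyte and macrophage list did not follow that order. It had a median of 3.81 above sham on day 1 and 3.00 on day 7. On day 3, 13 of its 26 members were lower than on day 1 and none was higher, against 18.3% and 17.1% of all genes. The days are those of the array titles, and whether they are right was not tested.

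Values are log2 expression levels made with GCRMA, a method that corrects each probe for background by its sequence, and a difference of 1 is a doubling. The 27 control probe sets with no rat target averaged 2.78, 2.65, 2.62 and 2.77 in day 3 cords, against 2.87, 2.78, 2.81 and 2.71 in sham cords, so a gene at about that level was not above background and the size of a change from it is not exact. The 4 day 3 arrays correlated with each other at 0.990 to 0.994 over all genes, and with the sham arrays at 0.946 to 0.965. The beta-actin probe sets at the 3′ end read above those at the 5′ end by 1.21, 1.10, 1.13 and 1.15 in day 3 cords, against 1.47, 1.29, 1.62 and 1.38 in sham cords (exact two-sided permutation p = 0.029, the smallest that 4 against 4 allows), while for GAPDH and hexokinase the p was 0.257 and 0.200. The labels name a whole-transcript labelling kit and the methods a 3′ protocol, and which was used is not settled. The methods pre-processed each time point on its own, so that step and the group cannot be told apart. Day 3 replicate 1 stood apart with 22 genes at 3 or more above the mean of the other 3, many of them genes of the meninges, and sham replicate 1 with 9 genes as far below. Counts that change by more than 1.5 times without either array are given with that value. In cord homogenate, fewer cells of a type and less RNA per cell cannot be told apart.

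On day 3, 3368 genes were higher than in sham and 2374 were lower (limma moderated test, Benjamini-Hochberg adjusted p under 0.05), which is 23.7% and 16.7% of all genes measured. Of these, 1514 genes were higher by 1 or more (10.6%) and 887 were lower by that much (6.24%), and the median change of all genes was -0.04. A rise of 4 or more, that is 16-fold, was reached by 93 genes, and a fall of that size by 20. Changes are given below as day 3 minus sham, on the log2 scale, with the standard error of the fit. The shares of 23.7% higher and 16.7% lower are the ones to set beside each count of list members against sham.

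**Figure D1:**
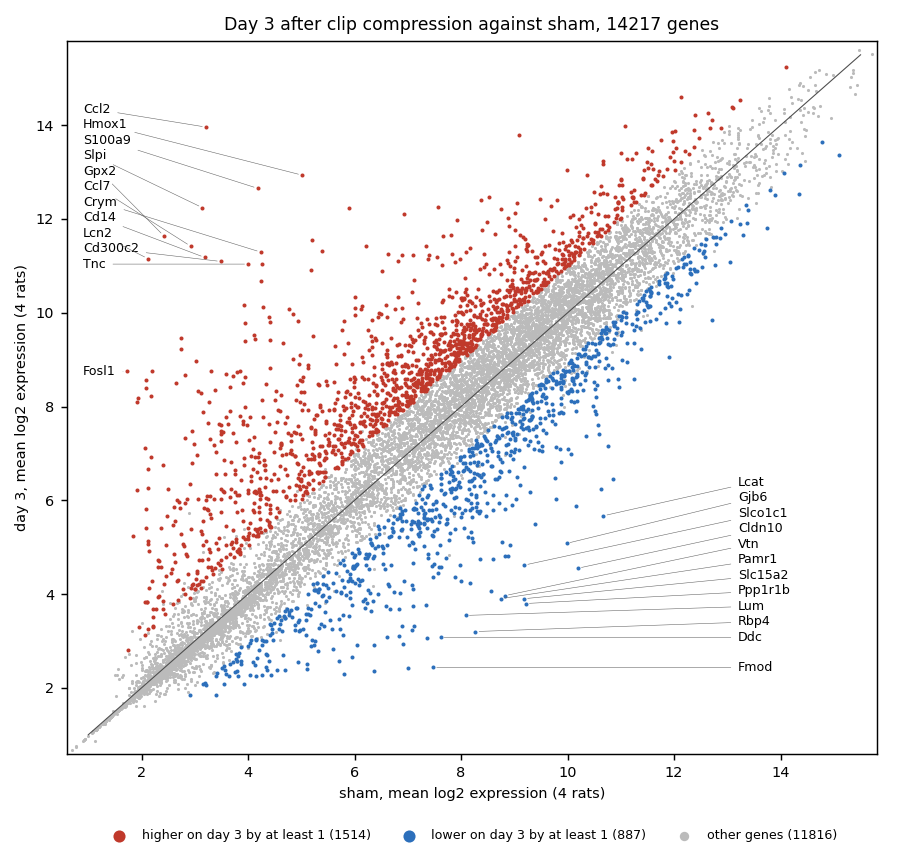
Mean log2 expression of each of the 14217 genes in day 3 cords (vertical axis) against sham cords (horizontal axis), 4 rats each. Coloured points are the 1514 genes higher and the 887 genes lower by at least 1 with adjusted p under 0.05, grey points are all others, and the 12 largest rises and falls are named. The 12 named rises start at low sham means, of which 11 are under 5, and the cloud of grey points follows the diagonal.

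Among genes whose 4 day 3 and 4 sham values did not overlap, the 12 largest rises were led by signals of innate immunity. Ccl2, the main monocyte-attracting chemokine, read 13.39, 14.53, 14.41 and 13.50 in day 3 cords, against 2.99, 3.57, 2.99 and 3.28 in sham cords (10.75 ± 0.50, adjusted p = 1e-11). Its neighbour Ccl7, which acts on the same receptor, read 10.78, 12.23, 11.88 and 10.80 in day 3 cords, against 3.56, 2.66, 2.83 and 2.62 in sham cords (8.50 ± 0.76, adjusted p = 5.1e-08). Sham was at or near background in both genes, and the rule that chose them required groups without overlap. S100a9 (calprotectin subunit of neutrophils and monocytes, 8.48 ± 0.55), Slpi (inhibitor of neutrophil elastase, 9.10 ± 0.72), Lcn2 (lipocalin that binds bacterial siderophores, 9.04 ± 1.03) and Cd14 (co-receptor for lipopolysaccharide, 8.00 ± 0.46) rose too. Cd300c2, an activating myeloid receptor, rose by 7.60 ± 1.15, and Hmox1, which breaks down heme, by 7.92 ± 0.58. Hmox1 was less even in sham, at 2.59, 6.10, 6.16 and 5.19, where replicate 1 was lowest.

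The other 4 of the 12 were, like Hmox1, not immune genes. Gpx2, a glutathione peroxidase best known from gut epithelium and an NRF2 target, read 12.01, 10.97, 11.61 and 11.99 in day 3 cords, against 2.46, 2.46, 2.40 and 2.34 in sham cords (9.23 ± 0.49, adjusted p = 8e-11), which puts all 4 injured cords far above background and all 4 sham cords at it. Crym, a thyroid hormone binding protein, rose by 7.06 ± 0.37, the matrix glycoprotein tenascin C (Tnc) by 7.04 ± 0.54 and the AP-1 subunit Fosl1 by 7.03 ± 0.25. Gpx2 was also higher on day 3 than on day 1, when its values were 2.96, 2.66, 2.49 and 2.45, and than on day 7, when they were 3.97, 2.42, 2.43 and 5.94 (adjusted p = 3.3e-10 and 1e-09). Lcn2 stood at 4.61, 9.23, 8.72 and 3.72 on day 1, and these values did not overlap with the 11.56, 10.45, 10.58 and 12.02 of day 3.

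The 12 largest falls, chosen in the same way, included transporters and secreted proteins. Cldn10, a claudin, read 5.84, 4.23, 4.44 and 3.70 in day 3 cords, against 9.67, 10.23, 10.47 and 10.41 in sham cords (-5.64 ± 0.97, adjusted p = 0.00012). Slc15a2, an astrocytic peptide transporter, fell to 4.69, 3.58, 3.63 and 3.71 in day 3 cords, against 8.77, 9.33, 9.28 and 9.35 in sham cords (-5.28 ± 0.74, adjusted p = 1.2e-05). Lcat, the plasma enzyme that esterifies cholesterol on lipoproteins, read 5.92, 5.05, 5.88 and 5.83 in day 3 cords, against 10.56, 11.15, 10.04 and 10.94 in sham cords (-5.003 ± 0.42, adjusted p = 2.5e-08). That the groups were separate in all 3 was required by the rule that chose them. Changes of the other 9 were -5.42 for Ppp1r1b (DARPP-32), -5.07 for the retinol carrier Rbp4, -5.04 for fibromodulin (Fmod), -4.90 for connexin 30 (Gjb6), -4.86 for vitronectin (Vtn), -4.85 for Pamr1, -4.57 for the thyroxine transporter of brain vessels (Slco1c1), -4.54 for lumican (Lum) and -4.54 for aromatic amino acid decarboxylase (Ddc). In 9 of these 12, all but Fmod, Lcat and Ddc, day 3 replicate 1 was the highest of the 4 injured cords by at least 0.5.

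Promoters of 4 of the genes with large changes are shown, chosen after their values were seen, because they hold an AP-1 or a STAT motif, the letters read by factors whose genes are described below. Each runs from 250 bases before the RefSeq start of the transcript to 50 bases after it (build GRCr8), with matches to the AP-1 motif TGANTCA, the STAT motif TTCNNNGAA and the cyclic AMP response element TGACGTCA on either strand in capitals. Ccl7 (chr10:67513845-67514144, plus strand) holds an AP-1 motif at position -73 and a STAT motif at 32, Mmp3 (chr8:12925031-12925330, plus strand) an AP-1 motif at -71, Gpx2 (chr6:101229984-101230283, minus strand) a STAT motif at -4, and Rbp4 (chr1:245313502-245313801, minus strand), which fell, an AP-1 motif at -164.
Ccl7: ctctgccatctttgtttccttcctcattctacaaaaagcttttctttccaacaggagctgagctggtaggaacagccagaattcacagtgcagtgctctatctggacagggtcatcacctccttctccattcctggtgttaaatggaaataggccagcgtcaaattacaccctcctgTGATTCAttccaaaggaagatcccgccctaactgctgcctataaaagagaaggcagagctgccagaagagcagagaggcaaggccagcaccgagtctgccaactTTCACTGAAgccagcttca
Mmp3: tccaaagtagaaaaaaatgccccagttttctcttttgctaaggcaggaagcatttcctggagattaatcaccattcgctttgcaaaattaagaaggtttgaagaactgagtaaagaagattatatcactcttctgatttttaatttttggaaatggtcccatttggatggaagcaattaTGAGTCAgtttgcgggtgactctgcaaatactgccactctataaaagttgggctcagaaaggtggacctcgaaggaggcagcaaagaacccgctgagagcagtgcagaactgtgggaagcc
Gpx2: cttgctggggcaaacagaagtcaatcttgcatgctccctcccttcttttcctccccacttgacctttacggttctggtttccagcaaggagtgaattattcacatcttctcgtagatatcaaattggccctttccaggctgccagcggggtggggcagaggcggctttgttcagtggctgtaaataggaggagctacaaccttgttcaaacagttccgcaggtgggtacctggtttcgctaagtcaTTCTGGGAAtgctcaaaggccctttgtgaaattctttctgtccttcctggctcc
Rbp4: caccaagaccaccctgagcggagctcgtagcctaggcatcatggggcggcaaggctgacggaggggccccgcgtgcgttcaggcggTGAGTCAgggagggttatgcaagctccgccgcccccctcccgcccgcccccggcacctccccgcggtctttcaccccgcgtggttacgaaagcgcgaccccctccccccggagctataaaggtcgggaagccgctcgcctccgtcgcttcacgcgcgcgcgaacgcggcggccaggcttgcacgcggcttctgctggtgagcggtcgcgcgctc

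Motif shares were set beside those of all promoters. Of 11733 measured genes with a promoter in the table, 6.03% of the 1277 higher by at least 1 held the AP-1 motif, 6.21% of the 709 lower by at least 1 and 5.44% of all. The STAT motif was found in 6.89% of the higher, 6.49% of the lower and 6.99% of all promoters, and the CCAAT box (CCAAT) in 38.1%, 34.4% and 37.3%. The cyclic AMP response element stood in 3.92% of the higher, 1.69% of the lower and 2.86% of all promoters. A match is a description of letters and not of binding.

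**Figure D2:**
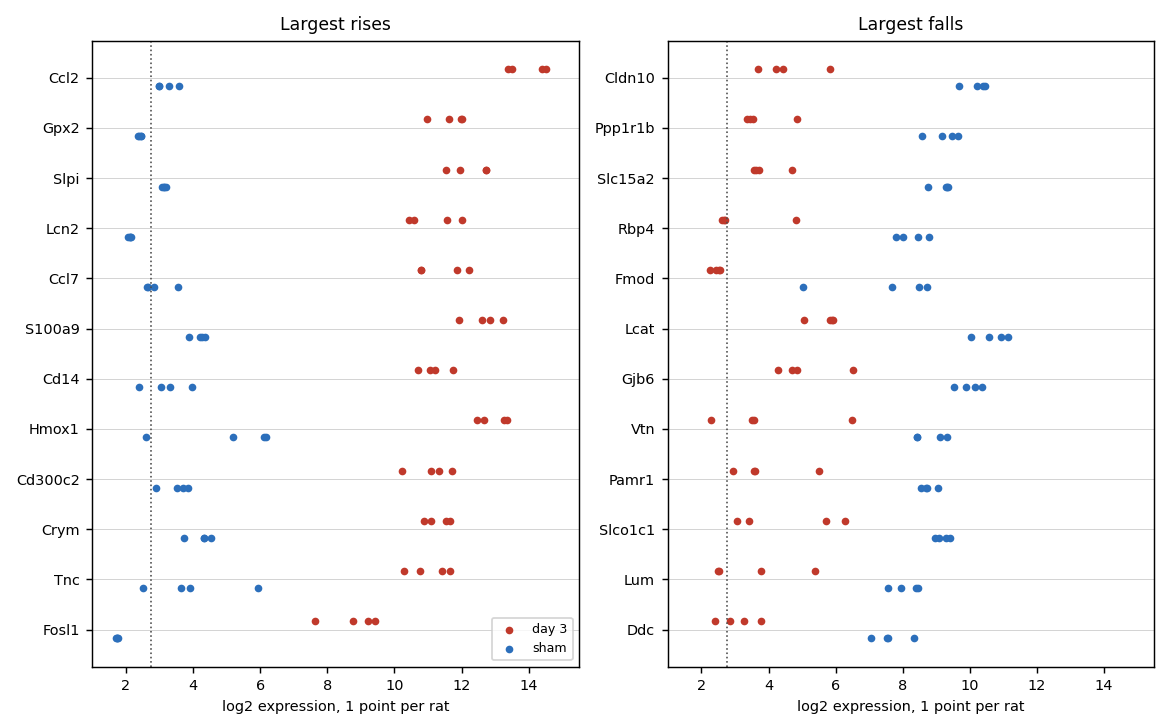
Log2 expression of the 12 genes with the largest rises (left panel) and the 12 with the largest falls (right panel), 1 point per rat, day 3 above sham within each gene. The vertical dotted line marks the mean of the control probe sets with no rat target over these 8 arrays. The genes were chosen so that day 3 and sham values do not overlap, and 11 of the 12 rising genes have a sham mean under 5.

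Of the chemokine list, 11 of 27 measured members rose and 2 fell (median change 0.58). Beside Ccl2 and Ccl7, the macrophage chemokine Ccl6 rose by 6.78 ± 0.62, its receptor Ccr1 by 4.41 ± 0.49, and the neutrophil attractants Cxcl1 and Cxcl2 by 3.85 ± 0.69 and 4.55 ± 0.46. Cxcl2 read 5.76, 8.58, 6.09 and 6.21 in day 3 cords, against 2.13, 2.11, 2.12 and 2.08 in sham cords, with replicate 2 the highest and sham at background. Cxcl14 and the receptor Cxcr4 had a mean above 5 in both groups and did not pass the test (0.58 and 0.93, adjusted p = 0.21 and 0.12). Cxcl2, Cxcl1 and Ccr1 were all higher on day 3 than on day 1 (by 3.97, 2.44 and 2.25) and than on day 7 (by 4.60, 3.43 and 3.85).

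Among neutrophil genes, 7 of 16 measured members rose and none fell (1 was lower at an unadjusted p under 0.05 in limma), namely Slpi, Lcn2, S100a9, S100a8, Il1r2, Ccr1 and Csf3r. S100a8, the partner of S100a9, read 10.87, 10.49, 10.93 and 10.45 in day 3 cords, against 4.53, 4.08, 4.35 and 3.99 in sham cords (6.45 ± 0.28, adjusted p = 5.2e-12), and Csf3r, the receptor for the granulocyte growth factor G-CSF, rose by 2.51 ± 0.58. Il1r2, a decoy receptor for interleukin-1, read 7.24, 9.07, 6.36 and 5.80 in day 3 cords, against 2.09, 2.06, 2.06 and 2.02 in sham cords (5.06 ± 0.40, adjusted p = 1.2e-08), so the 4 sham cords were at background and replicate 2 was highest on day 3. Of the 16 members, 8, among them Mmp8, Mmp9, Camp and Np4, had a mean under 5 in both groups. Mmp9, Camp, Np4 and Csf3r were named after their values were seen. Several of the risen genes are also made by monocytes, astrocytes or injured epithelium, and their cell of origin was not tested.

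In the IL-6 family, which signals through gp130 and STAT3, 7 of 18 measured members rose and 2 fell (median 0.03). Il6 itself read 6.14, 6.85, 6.55 and 3.16 in day 3 cords, against 2.54, 2.49, 2.49 and 2.42 in sham cords (3.19 ± 0.57, adjusted p = 0.00019), with replicate 4 lowest and close to sham. Il11 rose by 2.38 ± 0.42, Clcf1 by 1.65 ± 0.27 and the shared transcription factor Stat3 by 1.85 ± 0.16. Socs3, the feedback inhibitor that STAT3 induces, rose by 4.67 ± 0.38, while the shared receptor subunit Il6st (gp130) stayed at a change of -0.01 ± 0.13. Il6, Il11, Clcf1 and Socs3 were each higher on day 3 than on day 1 (by 2.50, 2.01, 1.46 and 2.04) and than on day 7 (by 3.29, 2.44, 1.92 and 4.35, each with adjusted p under 0.05). With only the 2 groups compared in the fit, Il6 and Il11 missed the test against day 1 (adjusted p = 0.10 and 0.079).

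In the interleukin-1 system 9 of 12 measured members rose and none fell (median 1.49). The co-receptor Il1rap rose by 2.59 ± 0.30, the processing enzyme Casp1 by 2.01 ± 0.50 and its adaptor Pycard by 1.83 ± 0.27. Il1b was low, at 3.61, 5.97, 3.55 and 2.21 in day 3 cords and 2.12, 2.10, 2.10 and 2.06 in sham cords (1.74 ± 0.45, adjusted p = 0.0043), with replicate 2 the highest, and it missed the test with the 2 groups alone. Of the NF-kB and Toll-like receptor genes, 9 of 14 rose, with Nfkbiz (a nuclear co-factor of NF-kB, 3.63 ± 0.33), the adaptor Myd88 (2.07 ± 0.30), Tlr2 (1.96 ± 0.43) and the inhibitor Nfkbia (1.56 ± 0.26) after Cd14. The subunit Nfkb1 did not pass the test (-0.40 ± 0.29, adjusted p = 0.24).

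Among early response factors 14 of 20 rose and none fell (0 also at an unadjusted p under 0.05 in limma), with a median of 2.41. Atf3, a stress-induced partner of Jun and a marker of axotomized neurons, rose by 6.25 ± 0.42, the bZIP factor Maff by 4.83 ± 0.32, Myc by 3.87 ± 0.19, Ier2 by 3.76 ± 0.58 and Junb by 3.51 ± 0.35. Fosl1 read 8.76, 9.41, 9.20 and 7.62 in day 3 cords, against 1.75, 1.72, 1.72 and 1.69 in sham cords, and its 4 day 1 values were 6.27, 6.74, 6.10 and 5.86, which lay below all of day 3 (adjusted p = 5.7e-07). Jund, which most cells make at a steady level, did not pass the test (-0.06 ± 0.12, adjusted p = 0.7).

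Among growth factors, 10 of 27 measured members rose and 6 fell. Hbegf, an EGF receptor ligand, read 10.66, 12.07, 11.41 and 10.89 in day 3 cords, against 6.58, 6.53, 6.58 and 6.82 in sham cords (4.63 ± 0.29, adjusted p = 7.6e-10), with replicate 2 the highest and no overlap between the groups. Bmp2 rose by 4.37 ± 0.41 and the neuropeptide precursor Vgf by 3.93 ± 0.25, while Igf1 fell by 4.26 ± 0.52, Bmp6 fell by 3.89 ± 0.80 and Nrg1 fell by 2.77 ± 0.81. The 4 Igf1 values were 7.66, 6.49, 5.42 and 3.98 in day 3 cords, against 10.13, 10.52, 9.64 and 10.30 in sham cords, and Igf1 was also lower than on day 1 (change -6.83) and than on day 7 (-7.31). Tgfa (-0.11 ± 0.19, adjusted p = 0.62) and Fgf9 (-1.72 ± 0.71, adjusted p = 0.065) did not pass the test against sham, though Fgf9 did with the 2 groups alone.

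Stress genes were grouped by response. Of the heat shock list, 9 of 15 rose and 1 fell, led by the inducible Hspa1a, which read 11.75, 13.12, 12.77 and 11.35 in day 3 cords, against 7.88, 7.19, 8.95 and 6.22 in sham cords (4.69 ± 0.53, adjusted p = 8.7e-07). The small heat shock proteins Hspb8, Hspb1 and Cryab rose by 2.44 ± 0.34, 1.86 ± 0.26 and 1.40 ± 0.19, and their co-chaperone Bag3 by 1.47 ± 0.19, whereas the constitutive Hsp90ab1 did not pass the test (-0.08 ± 0.11, adjusted p = 0.57). Of the unfolded protein and integrated stress response genes 14 of 24 rose and 3 fell. The largest rises were Chac1 (3.47 ± 0.34), Ppp1r15a (GADD34, 3.24 ± 0.29), Sesn2 (1.88 ± 0.22), Atf4 (1.89 ± 0.14), the factor that drives amino acid synthesis genes under stress, Asns (1.62 ± 0.20) and Creld2, a protein of the endoplasmic reticulum (1.40 ± 0.17). Those that fell were Ddit4 (-1.15 ± 0.33), Psat1 (-1.07 ± 0.34) and Phgdh (-0.98 ± 0.34), the last pair enzymes of serine synthesis, all 3 named after their values were seen. Phgdh missed the test without day 3 replicate 3 or sham replicate 2 or 4, and Psat1 without day 3 replicate 4 or sham replicate 3. The bright members Pdia4 and Dnajb9 did not pass (0.24 and -0.06, adjusted p = 0.12 and 0.69).

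The antioxidant and heme list had 13 of 21 measured members higher and none lower (3 at an unadjusted p under 0.05 in limma, median 0.93). Srxn1 (sulfiredoxin) read 11.06, 12.07, 11.91 and 10.68 in day 3 cords, against 6.14, 6.61, 6.10 and 6.04 in sham cords (5.21 ± 0.26, adjusted p = 4e-11), and Txnrd1, Mt2A and Mt1 rose by 2.08 ± 0.14, 1.69 ± 0.26 and 1.48 ± 0.28. Gclm, the regulatory subunit of glutathione synthesis, changed by 0.05 ± 0.13 and ceruloplasmin (Cp) by -0.58 ± 0.25, neither past the test.

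Ribosome biogenesis, among the 50 lists, was the one whose every measured member rose, 28 of 28, with a median of 1.58. Rrp9, a component of the small-subunit processome, rose by 2.58 ± 0.26, Noc2l by 2.50 ± 0.22, the box C/D methyltransferase fibrillarin (Fbl) by 2.43 ± 0.16, Bop1 by 2.11 ± 0.17 and Nop58 by 2.03 ± 0.14. Fbl read 11.84, 12.26, 12.15 and 11.75 in day 3 cords, against 9.47, 9.75, 9.37 and 9.68 in sham cords, with no overlap between the groups. In the direct contrasts 23 of the 28 were also higher on day 3 than on day 1, against 17.1% of all genes, and 26 were higher than on day 7, against 17.1% of all genes. None was lower than on either day.

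In the hypoxia and glycolysis list 10 of 26 rose and 2 fell. Lactate dehydrogenase A (Ldha) rose by 2.93 ± 0.26, the lactate exporter Slc16a3 by 2.84 ± 0.66, Pfkfb3, which makes the activator of phosphofructokinase, by 1.60 ± 0.17 and the neuronal glucose transporter Slc2a3 by 1.17 ± 0.20. Glycolytic enzymes that were bright in sham (Aldoa, Pgam1) did not pass the test, with changes of 0.14 and 0.22, though Aldoa did with the 2 groups alone. Of respiratory chain subunits 4 of 22 rose and 3 fell, against 23.7% and 16.7% of all genes. The largest rise and fall of these subunits were 0.79 ± 0.15 for Cox5a and -0.55 for Sdha. The rises were 2 without day 3 replicate 2 and 2 without sham replicate 4, and 7 after median centring. In cholesterol synthesis 5 of 17 rose and none fell, against 23.7% and 16.7% of all genes. Sqle, the squalene epoxidase (1.16 ± 0.38), and Fdps (1.14 ± 0.18) were among the 5. Sqle missed the test without day 3 replicate 3 or sham replicate 4. In the direct contrasts, 15 of 17 members were higher on day 3 than on day 1 and 16 were higher than on day 7, each against 17.1% of all genes.

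**Figure D3:**
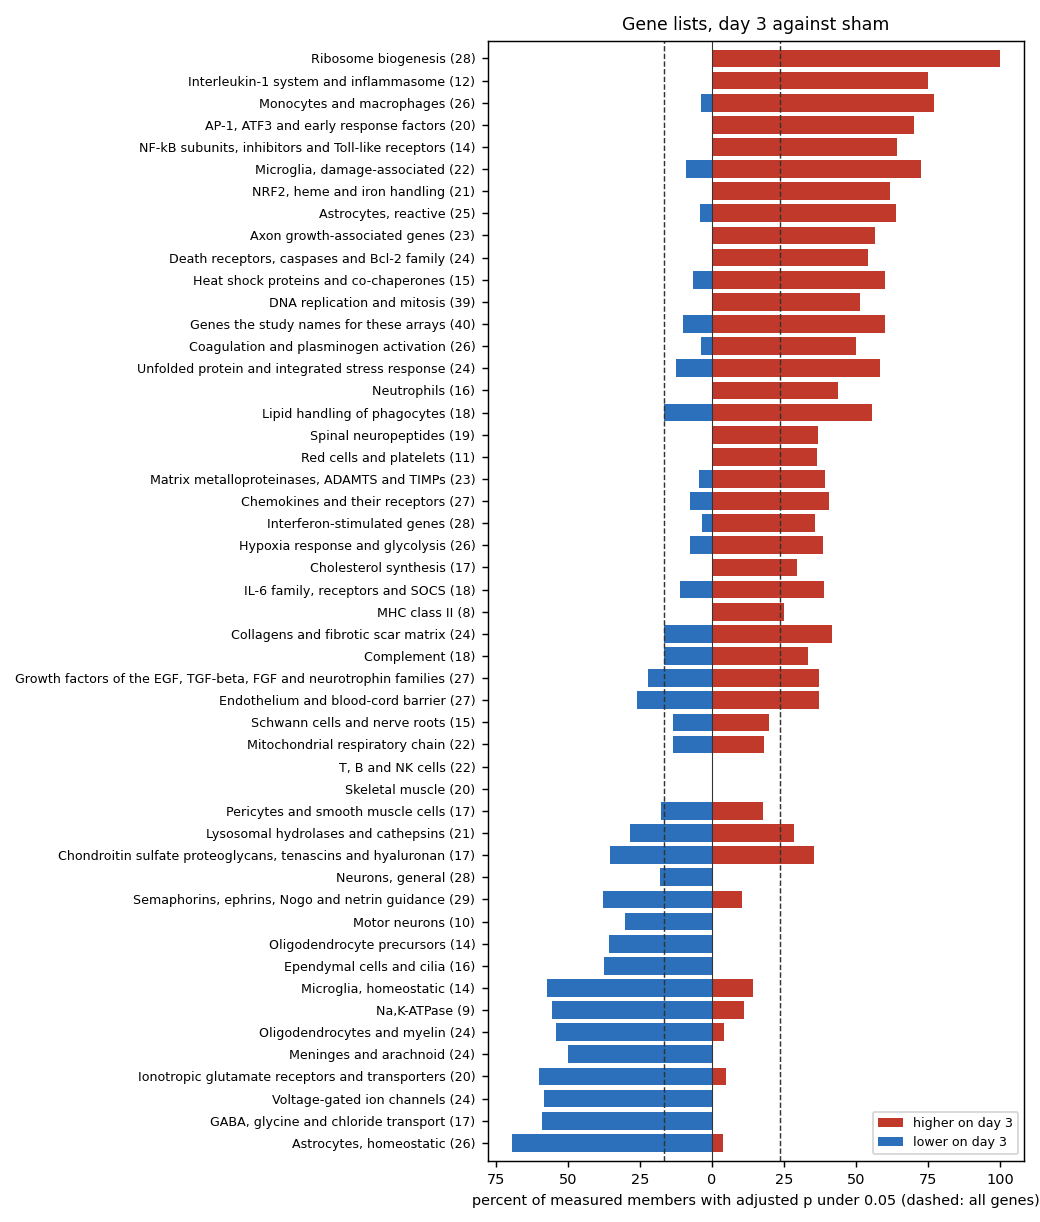
Share of the measured members of each gene list that were higher (red, to the right) or lower (blue, to the left) on day 3 than in sham at adjusted p under 0.05, with the measured number beside each name. Dashed lines give the share over all 14217 genes (23.7% higher and 16.7% lower). Ribosome biogenesis reaches 100% higher, and homeostatic astrocyte genes have the largest share lower of the 50 lists.

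Reactive and homeostatic astrocyte genes differed in direction. Of the reactive markers 16 of 25 rose and 1, the complement inhibitor Serping1, fell by 1.85 ± 0.56 (named after its value was seen, and not past the test without day 3 replicate 2 or 3 or with the 2 groups alone), with a median of 1.89, and of the homeostatic markers 18 of 26 fell and 1 rose, with a median of -1.41. Timp1, an inhibitor of matrix metalloproteinases, read 14.11, 13.57, 13.71 and 13.74 in day 3 cords, against 7.32, 10.02, 9.10 and 9.91 in sham cords (4.69 ± 0.37, adjusted p = 1e-08), and Serpina3n, a serine protease inhibitor of reactive astrocytes, rose by 6.17 ± 0.28. Emp1 rose by 4.29 ± 0.37, Sphk1, which makes sphingosine 1-phosphate, by 3.75 ± 0.28 and the receptor for that lipid S1pr3 by 3.59 ± 0.36. Gfap, the intermediate filament by which astrocytes are stained, was at 14.33, 14.39, 14.45 and 14.49 in day 3 cords and 14.63, 14.74, 14.76 and 14.85 in sham cords, a change of -0.33 ± 0.14 that did not pass the test with all 6 groups (adjusted p = 0.07) and did with the 2 groups alone. Among the homeostatic genes, Gjb6 read 6.50, 4.84, 4.70 and 4.28 in day 3 cords, against 9.54, 9.87, 10.35 and 10.15 in sham cords (-4.90 ± 0.76, adjusted p = 3.7e-05), and the serine transporter Slc7a10, the bicarbonate transporter Slc4a4 and the receptor Gpr37l1 changed by -3.51 ± 0.19, -2.86 ± 0.39 and -2.06 ± 0.31. Aldoc (-0.80 ± 0.33) and Itih3 (-1.44 ± 1.03) passed with the 2 groups alone and not with all 6. The one homeostatic marker that rose was Glul, the glutamine synthetase, by 0.24 ± 0.06 (named after its value was seen, and not past the test after quantile normalization).

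Myeloid genes differed between the resting and the activated lists. Of monocyte and macrophage genes 20 of 26 rose and 1, the macrophage antigen Adgre1 (F4/80), fell by 2.85 ± 0.48 (median of the list 2.33), and of damage-associated microglia genes 16 of 22 rose and 2 fell. Arginase 1 (Arg1) read 11.14, 12.11, 11.65 and 11.30 in day 3 cords, against 5.14, 6.18, 4.80 and 4.70 in sham cords (6.34 ± 0.79, adjusted p = 3e-06), the inhibitory receptor Lilrb4 rose by 5.94 ± 0.51, factor XIII (F13a1) by 5.45 ± 1.02, Cd68 by 4.54 ± 0.64, the beta-glucan receptor Clec7a by 3.19 ± 0.62 and osteopontin (Spp1) by 2.90 ± 0.31. Homeostatic microglia genes went the other way, with 8 of 14 lower and 2 higher (Itgam and P2ry6). Tmem119 read 4.20, 4.12, 5.15 and 5.52 in day 3 cords, against 7.54, 8.96, 8.53 and 8.41 in sham cords (-3.61 ± 0.40, adjusted p = 7.1e-07), the purine receptor P2ry12 changed by -2.68 ± 0.28 and Gpr34 by -2.73 ± 0.23. Aif1 (IBA1), the usual stain for both cell types, had a change of 0.07 ± 0.29 that did not pass the test, and Cx3cr1 one of -0.61 ± 0.34. At the other times the median of the homeostatic microglia list lay above sham, by 1.37, 1.63, 1.29 and 0.94 on days 1, 7, 14 and 56. Of its 14 members 9 were lower and 1 was higher on day 3 than on day 1, and 12 were lower and none was higher than on day 7. Of all genes 18.3% and 12.8% were lower.

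Lysosomal genes on day 3 were compared directly with both neighbouring times. Of lysosomal hydrolases 20 of 21 members were lower on day 3 than on day 1, against 18.3% of all genes, and 20 were lower than on day 7, against 12.8% of all genes. None was higher in either contrast. Against sham 6 of the 21 rose and 6 fell, where 23.7% and 16.7% of all genes did. Ctsc, the activator of granule proteases (3.58 ± 0.45), rose most, and Ctss (-1.12 ± 0.11) and Ctsh (-1.07 ± 0.12) were among those that fell. Adgre1, of the macrophage list, read 3.47, 3.41, 4.48 and 3.59 on day 3, 5.05, 7.61, 5.69 and 8.00 in sham, 8.37, 9.22, 8.69 and 9.49 on day 1 and 10.23, 10.62, 9.70 and 10.19 on day 7, and no day 3 value reached any of the others. Lipid handling genes of phagocytes had 10 of 18 members higher than sham, such as the scavenger receptor Cd36 (5.85 ± 0.83), Fabp4 (4.73 ± 0.68), Ch25h (4.02 ± 0.37) and Plin2, which coats lipid droplets (2.18 ± 0.22), and 3 lower, of which the cholesterol exporter Abca1 changed most (-2.96 ± 0.43).

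6 of 18 complement genes rose and 3 fell, against 23.7% and 16.7% of all genes, so the share that fell was that of all genes. The receptors C5ar1 and C3ar1 rose by 5.87 ± 0.65 and 2.62 ± 0.38 and C1qc by 2.31 ± 0.35, while C3, the central component, read 8.52, 8.78, 9.40 and 9.29 in day 3 cords, against 10.33, 11.22, 11.37 and 11.19 in sham cords (-2.03 ± 0.63, adjusted p = 0.016). Without day 3 replicate 1 5 complement genes were lower and without day 3 replicate 2 1. Of interferon-stimulated genes 10 of 28 rose and 1 fell, with Ifitm1 (6.47 ± 0.39), Ifit3 (2.94 ± 0.75) and Rsad2 (2.38 ± 0.82) at the top and Mx2 (-1.64 ± 0.43) at the bottom, which missed the test with its probe sets averaged. Rsad2 missed the test without day 3 replicate 2, 3 or 4 or sham replicate 1, 2 or 3. In the direct contrast, 21 of the 28 were lower on day 3 than on day 7, against 12.8% of all genes, and none was higher. In MHC class II 2 of 8 members rose, which is near the 23.7% of all genes. The peptide-exchange chains RT1-DMa and RT1-DMb rose by 2.66 ± 0.30 and 2.29 ± 0.29, while RT1-Da (0.91 ± 0.62) and Cd74 (-0.12 ± 0.51) did not pass the test.

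Of replication and mitosis genes 20 of 39 were higher than in sham and none was lower (median 1.09). The replicative helicase subunits Mcm6 and Mcm4 rose by 5.18 ± 0.39 and 4.17 ± 0.29, the mitotic kinase Cdk1 by 4.76 ± 0.40, and Mki67, which marks cycling cells, read 8.63, 9.12, 8.75 and 9.86 in day 3 cords, against 5.23, 4.92, 5.08 and 4.68 in sham cords (4.11 ± 0.44, adjusted p = 4.9e-07). In the same list 17 members had both means under 5. None of the 39 was higher and 33 were lower on day 3 than on day 1, against 17.1% and 18.3% of all genes. Against day 7 4 were higher and 3 lower, where 17.1% and 12.8% of all genes were. Day 3 replicate 4 had the highest mean over the list, 6.28 against 5.40 to 5.49 in the other 3 injured cords and 3.91 to 4.10 in sham, and without it 17 members were higher than sham, all 17 among the 20.

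General neuronal genes had a median change of -0.92 against sham, and how many passed the test depended on the fit. With all 6 groups in the fit, which share 1 estimate of the spread, 5 of 28 fell, and with only day 3 and sham in it 23 were lower. With all probe sets of each symbol averaged, 8 were lower and 1 was higher. None was higher in the first 2 fits, nor at an unadjusted p under 0.05 in limma. The neurofilament light chain Nefl read 13.78, 13.20, 12.53 and 13.46 in day 3 cords, against 14.38, 14.41, 14.78 and 14.27 in sham cords (-1.22 ± 0.81, adjusted p = 0.21), and Nefm changed by -1.22 ± 0.75. The groups did not overlap for Nefl, and neither gene passed the test with all 6 groups, while both did with the 2 groups alone. Elavl4 (-2.47 ± 0.42), Cplx2 (-1.25 ± 0.27) and Map2 (-1.18 ± 0.34) fell. On day 1 the same list stood lower: 27 of 28 were higher on day 3 than on day 1 and 18 were higher than on day 7, each against 17.1% of all genes. Chodl, a marker of fast motor neurons, read 11.33, 10.18, 8.40 and 10.70 in day 3 cords, against 3.83, 4.06, 3.83 and 2.89 in day 1 cords (difference 6.50 ± 1.07, adjusted p = 0.00014), while its values in sham were 12.41, 12.55, 12.30 and 12.06. Of motor neuron genes 3 of 10 fell, all in the cholinergic pathway: Chat (-2.52 ± 0.22), the choline transporter Slc5a7 (-2.46 ± 0.73) and the vesicular transporter Slc18a3 (-1.55 ± 0.22). Against sham the change of Chodl was -2.18 ± 1.07 and did not pass the test (adjusted p = 0.11) with all 6 groups, though the groups did not overlap and it passed with the 2 groups alone. Without day 3 replicate 1, 6 of the 10 were lower, without day 3 replicate 4, 5, and with the 2 groups alone, 5.

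Of growth-associated genes 13 of 23 rose and none fell (median 1.05). Galanin (Gal), a peptide that injured neurons make, read 11.08, 11.57, 11.58 and 10.72 in day 3 cords, against 6.14, 8.15, 8.24 and 7.02 in sham cords (3.85 ± 0.60, adjusted p = 4.4e-05), and its day 1 and day 7 values were 9.68, 8.08, 7.82 and 8.39 and 4.78, 4.79, 7.12 and 6.58. The muscle LIM protein Csrp3, described in regenerating neurons, read 6.54, 6.21, 6.73 and 5.56 in day 3 cords, against 2.14, 2.13, 2.12 and 2.09 in sham cords (4.14 ± 0.17, adjusted p = 2.7e-12), with replicate 4 the lowest injured cord and sham at background. The neuronal transcription factor Sox11 rose by 3.26 ± 0.29, the beta-tubulin Tubb6 by 5.20 ± 0.27 and Gadd45a by 3.36 ± 0.22, while Stmn2 (-0.74 ± 0.53) and Tubb3 (-0.35 ± 0.38) did not pass, though both were lower in the fit of the 2 groups alone, as were 3 of the 23 in all. 14 members were higher on day 3 than on day 1 and 16 were higher than on day 7, each against 17.1% of all genes, while 3 and 1 were lower. Of neuropeptides 7 of 19 rose and none fell (3 were lower at an unadjusted p under 0.05 in limma, and 2 passed with the 2 groups alone). Tac1, the substance P precursor, read 8.50, 9.40, 8.73 and 7.50 in day 3 cords, against 4.81, 4.90, 5.74 and 4.59 in sham cords (3.52 ± 0.54, adjusted p = 3.4e-05), and Pdyn (dynorphin), Vip, Crh and Adcyap1 (PACAP) rose by 2.45 ± 0.46, 2.54 ± 0.45, 2.22 ± 0.47 and 2.15 ± 0.38. Penk (0.20 ± 0.70) and Cck (-0.65 ± 0.27), further spinal peptides, did not pass, and with the 2 groups alone Cck passed and Crh missed the test. The sensory ganglion markers Prdm12, Scn10a and P2rx3, looked up after these values were seen, averaged at most 2.09 in day 3 cords and 2.13 in sham cords, which is background. No array here holds known ganglion tissue, so whether these probe sets would detect it is not known. Which cells made the risen transcripts was not tested.

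Of neuronal channels and receptors many fell against sham. 14 of 24 voltage-gated channel genes fell and none rose (median -0.87), among them Kcnip4 (-2.55 ± 0.47), Kcnd2 (-1.74 ± 0.61) and Kcna2, the potassium channel beside the node of Ranvier (-1.64 ± 0.60). The count was 9 without day 3 replicate 3 and 9 without sham replicate 3. It was 6 with dim probe sets left out, which takes away the 11 of the 24 with both means under 5. Kcnd2 and Kcna2 passed the test only with some arrays kept. Kcnd2 missed it without day 3 replicate 2, 3 or 4 or sham replicate 1, 2 or 3. Kcna2 missed it without day 3 replicate 3 or 4 or sham replicate 1, 2 or 3 or after median centring. Of GABA and glycine genes 10 of 17 fell and none rose. Gabrb2, a subunit of the GABA-A receptor, read 6.33, 3.79, 3.88 and 4.48 in day 3 cords, against 7.68, 8.18, 8.94 and 7.13 in sham cords (-3.36 ± 0.56, adjusted p = 8.9e-05), the glycine receptor subunit Glra2 fell by 2.67 ± 0.24, the vesicular transporter Slc32a1 (VGAT) fell by 2.52 ± 0.46, and Slc12a5 (KCC2) and Gad1 did not pass (-1.07 and -0.24), though Slc12a5 did with the 2 groups alone. Of ionotropic glutamate receptors and transporters 12 of 20 fell, including Grin2a (-1.88 ± 0.47) and Gria3 (-1.65 ± 0.30), and only the neuronal glutamate and cysteine transporter Slc1a1 rose (1.97 ± 0.25). Among sodium pump genes 5 of 9 fell, with Fxyd1 at -1.53 ± 0.30 and Atp1b2 at -1.45 ± 0.35, and the regulator Fxyd5 rose (1.63 ± 0.31). Guidance genes had 11 of 29 members lower and 3 higher, with the myelin inhibitor Omg (-2.14 ± 0.42) and the ephrin receptor Epha4 (-1.84 ± 0.39) at the bottom and Sema3c (2.19 ± 0.24) at the top. With the 2 groups alone 1 was higher. In the direct contrast with day 1, 12 of 24 voltage-gated channel, 8 of 17 GABA and glycine and 9 of 20 glutamate genes were higher on day 3. Lower were 1, 0 and 0. All genes had 17.1% higher and 18.3% lower. Against day 7 these 3 lists had 9, 5 and 5 members higher and 0, 0 and 1 lower, where all genes had 17.1% and 12.8%.

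Of myelin genes 13 of 24 were lower and 1 was higher (median -0.53), with Ermn (-1.94 ± 0.34), Mal (-1.80 ± 0.41) and Aspa, which splits N-acetylaspartate (-1.57 ± 0.19), at the bottom. The bright myelin transcripts Mobp (-0.25 ± 0.18) and Cldn11 (-0.22 ± 0.14) did not pass, though Mobp did with the 2 groups alone. Of precursor genes 5 of 14 fell, among them Pdgfra (-1.50 ± 0.35) and Cspg5 (-1.66 ± 0.43), while Olig1 (-0.52 ± 0.26) and Bcas1 (-0.06 ± 0.15) did not pass.

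**Figure D4:**
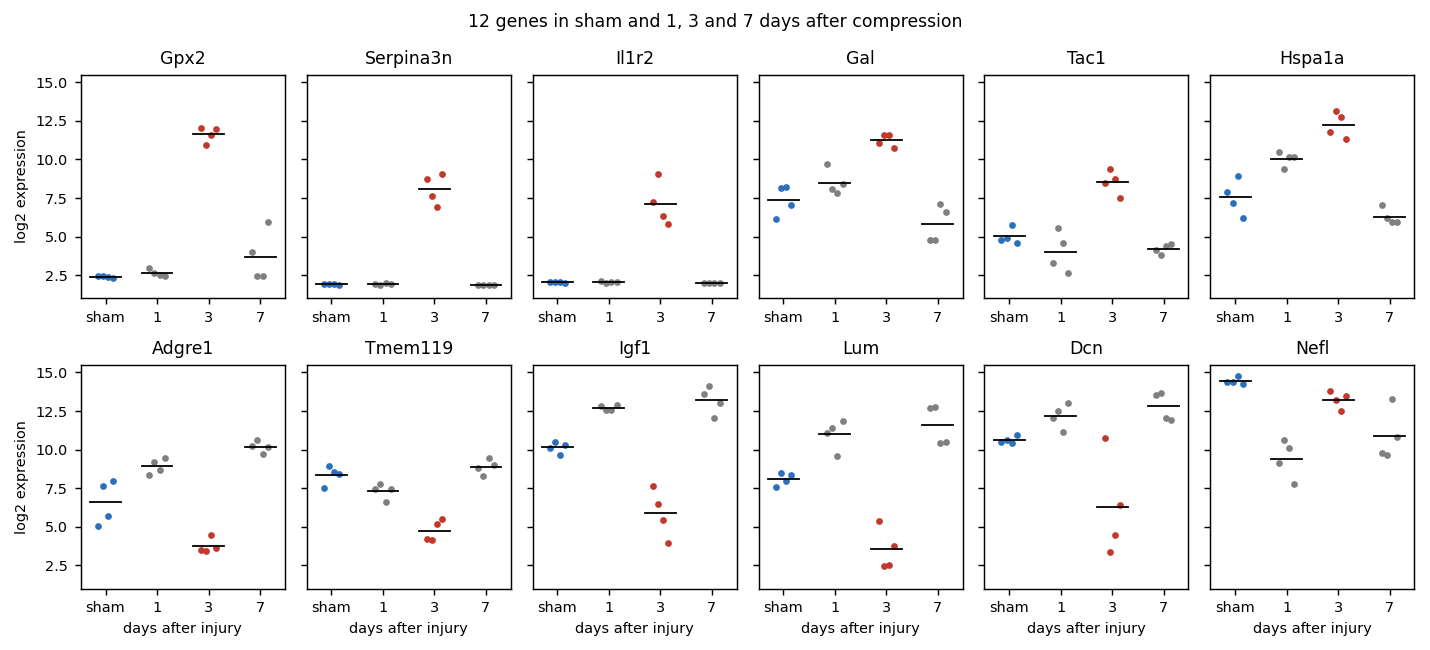
Log2 expression of 12 genes in sham and 1, 3 and 7 days after compression, 1 point per rat with the group mean as a bar. In the top row day 3 has the highest mean for Gpx2, Serpina3n, Il1r2, Gal, Tac1 and Hspa1a, and in the bottom row Adgre1, Tmem119, Igf1, Lum and Dcn have their lowest mean on day 3, while the mean of Nefl on day 3 lies between those of day 7 and sham.

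Vessel genes changed in both directions, as did genes at large. Of 27 measured endothelial and barrier genes 10 rose and 7 fell, against 23.7% and 16.7% of all genes. Nitric oxide synthase Nos3 (2.87 ± 0.12), the vessel-destabilizing ligand Angpt2 (2.77 ± 0.57) and apelin (Apln, 2.58 ± 0.42) rose, whereas the apelin receptor Aplnr (-2.48 ± 0.46), the tight junction protein occludin (Ocln, -2.61 ± 0.28) and Slco1c1 (-4.57 ± 0.70) fell. Ocln read 6.48, 4.59, 5.71 and 6.15 in day 3 cords, against 8.26, 8.37, 8.09 and 8.65 in sham cords, with no overlap, and Cldn5, the main claudin of brain endothelium, did not pass the test (-0.51 ± 0.23, adjusted p = 0.09). Of 17 mural cell genes 3 rose and 3 fell (6 without day 3 replicate 1 and 5 without day 3 replicate 4), beside the same shares of all genes. Rgs5, a pericyte marker, fell by 2.61 ± 0.41, and Anpep and Mcam rose by 3.16 ± 0.74 and 1.66 ± 0.30. In the coagulation and plasminogen list 13 of 26 rose and 1 fell, led by the inhibitor Tfpi2 (5.84 ± 0.48), the urokinase Plau (4.24 ± 0.58), its receptor Plaur (4.21 ± 0.67), the protein C receptor Procr (3.21 ± 0.18) and thrombomodulin (Thbd, 2.80 ± 0.55). Red cell and platelet genes had 4 of 11 members higher. Alas2, which starts heme synthesis in red cell precursors, read 9.50, 10.87, 7.94 and 12.06 in day 3 cords, against 7.30, 5.77, 6.18 and 4.75 in sham cords (4.09 ± 0.95, adjusted p = 0.0019), with a wide spread among the injured cords, and Hbb rose by 1.15 ± 0.31. Without sham replicate 4, 2 of the 11 were higher.

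Matrix genes were read in 3 lists. Of metalloproteinases and their inhibitors 9 of 23 rose, with stromelysin 1 (Mmp3) at 8.43, 9.47, 9.67 and 7.43 in day 3 cords and 2.23, 2.20, 2.20 and 2.16 in sham cords (6.55 ± 0.43, adjusted p = 9.9e-10), Adam8 (4.51 ± 0.69), Adamts9 (4.21 ± 0.35) and Adamts1 (4.05 ± 0.26), and Timp4 fell (-3.33 ± 0.43). Among proteoglycans and tenascins 6 of 17 rose and 6 fell: neurocan (Ncan) read 8.48, 9.34, 9.21 and 7.89 in day 3 cords, against 2.52, 3.82, 4.08 and 4.78 in sham cords (4.93 ± 0.76, adjusted p = 3.6e-05), syndecan 1 (Sdc1) rose by 6.04 ± 0.67 and the hyaluronan receptor Cd44 by 2.95 ± 0.19, while brevican (Bcan) changed by -1.89 ± 0.28. Of collagens and scar matrix genes 10 of 24 rose and 4 fell, against 23.7% and 16.7% of all genes, so the share that fell was that of all genes. Among those that rose were Thbs2 (5.52 ± 0.36), the crosslinking enzyme Lox (4.38 ± 0.68), fibronectin (Fn1, 3.45 ± 0.41) and Col4a1 of basement membranes (3.37 ± 0.48). The fibrillar collagen Col3a1 read 10.05, 3.48, 4.05 and 8.33 in day 3 cords, against 8.76, 10.11, 10.004 and 10.16 in sham cords (-3.28 ± 1.08, adjusted p = 0.022), and here the injured cords spread from near background to the sham level, with replicate 1 highest. The 4 falls of this list became 1 without day 3 replicate 2, 1 without day 3 replicate 3 and 2 without sham replicate 2. Col3a1 missed the test without either of these day 3 arrays and in the fit of the 2 groups alone, in which 2 fell.

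Genes of the meninges, the sheets around the cord, were marked by fibroblast matrix. Of these 12 of 24 measured members fell and none rose (none at an unadjusted p under 0.05 in limma either, median -1.40), and the mean over the list was 7.34, 5.49, 5.76 and 6.26 in day 3 cords, against 7.40, 8.45, 8.06 and 8.33 in sham cords. Day 3 replicate 1 was nearly at the level of sham replicate 1, and the other 3 arrays of each group lay further apart. Decorin (Dcn) read 10.78, 3.35, 4.46 and 6.42 in day 3 cords, against 10.47, 10.65, 10.43 and 10.93 in sham cords (-4.37 ± 1.03, adjusted p = 0.0021; it missed the test in the fit of the 2 groups alone), Bmp6 read 8.54, 4.26, 4.19 and 4.999 in day 3 cords, against 8.55, 9.81, 9.56 and 9.61 in sham cords, and insulin-like growth factor 2 (Igf2) read 8.89, 5.03, 6.21 and 5.66 in day 3 cords, against 9.88, 11.06, 11.22 and 11.26 in sham cords (-4.41 ± 0.82, adjusted p = 0.00026). Without day 3 replicate 1, 16 of the 24 were lower and the median was -1.58, and without sham replicate 1, 12 were lower. Lum, Dcn and Col3a1 were also lower on day 3 than on day 1 (changes -7.45, -5.92 and -5.82) and than on day 7 (-8.05, -6.55 and -6.76). How much meninges each piece of tissue held was not measured, and its part in these differences was not tested.

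**Figure D5:**
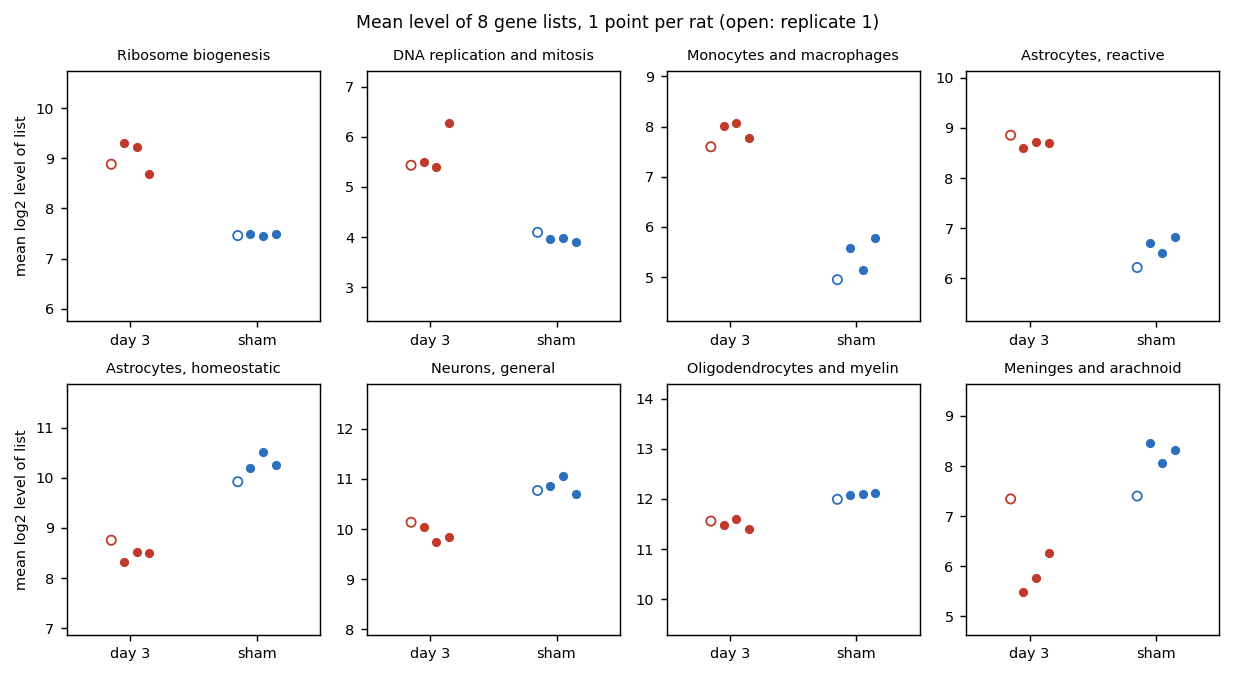
Mean log2 level over the measured members of 8 lists, 1 point per rat, day 3 left of sham in each panel. In the meninges panel the first replicate of each group (open circle) lies nearest to the other group, and in the ribosome biogenesis, monocyte and reactive astrocyte panels the groups are apart.

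Of death genes 13 of 24 rose and none fell. The TWEAK receptor Tnfrsf12a read 12.14, 12.51, 12.34 and 11.95 in day 3 cords, against 5.92, 5.91, 5.87 and 5.87 in sham cords (6.34 ± 0.20, adjusted p = 8.1e-14), Bcl2a1, a survival factor of myeloid cells, rose by 4.03 ± 0.53, the inflammatory caspase Casp4 by 2.48 ± 0.27, the TNF receptor Tnfrsf1a by 2.09 ± 0.28, Bid by 1.68 ± 0.32 and Mcl1 by 1.61 ± 0.12.

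Some cell types gave little signal. None of 22 measured T, B and NK cell genes passed the test in limma in either direction (5 were lower at an unadjusted p under 0.05, and 3 passed without day 3 replicate 1), and 21 of them had both means under 5. The same held for 20 skeletal muscle genes (1 lower at an unadjusted p under 0.05), of which 17 were that dim. Of ependymal genes 6 of 16 fell, with 12 dim, the ciliary transcription factor Foxj1 changing by -0.96 ± 0.22. With the 12 dim members left out, 3 of the remaining members fell. Schwann cell genes had 3 of 15 members higher and 2 lower, near the 23.7% and 16.7% of all genes. The peripheral myelin gene Pmp22 did not pass (-0.15 ± 0.21, adjusted p = 0.55). Markers of the labelled tissue were present: neuronal, astrocytic and myelin genes had list means of 9.74 to 11.06, 8.32 to 10.51 and 11.41 to 12.12 over the 8 arrays. Of the genes the study names for these arrays, a list that is not independent of them, 24 of 40 were higher and 4 lower (2 without day 3 replicate 2).

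Against day 1 the third day had 2437 genes higher (17.1%) and 2598 lower (18.3%), and against day 7 it had 2438 higher (17.1%) and 1816 lower (12.8%). Among genes without overlap, the largest rises over day 1 were Gpx2 (9.003 ± 0.49), Chodl (6.50 ± 1.07), Serpina3n (6.15 ± 0.28), the sodium channel Scn1a (5.86 ± 1.12), Lynx1, a brake on nicotinic receptors (5.66 ± 0.76), Itih3 (5.23 ± 1.03), Scn4b (5.07 ± 0.66) and Il1r2 (5.05 ± 0.40). The largest falls from day 1 were the apolipoprotein Apoc1 (-8.56 ± 0.69), Plbd1 (-7.55 ± 0.57), Lum (-7.45 ± 0.70), Igf1 (-6.83 ± 0.52), Fcnb (-6.15 ± 0.51), Asgr2 (-5.94 ± 0.62), Dcn (-5.92 ± 1.03) and Fcrl2 (-5.91 ± 0.76). Serpina3n was at background at both neighbouring times, at 1.93, 1.88, 2.02 and 1.92 on day 1 and 1.84, 1.87, 1.87 and 1.85 on day 7, against 8.74, 7.63, 6.90 and 9.07 on day 3. Against day 7 the largest rises were Gpx2 (7.95 ± 0.49), S100a9 (7.80 ± 0.55), Lcn2 (7.34 ± 1.03), Fosl1 (7.08 ± 0.25), Alas2 (6.79 ± 0.95), S100a8 (6.62 ± 0.28), Mmp3 (6.61 ± 0.43) and Serpina3n (6.23 ± 0.28), and the largest falls were Lum (-8.05 ± 0.70), Apoc1 (-7.46 ± 0.69), Plbd1 (-7.38 ± 0.57), Igf1 (-7.31 ± 0.52), Fcrl2 (-6.77 ± 0.76), Col3a1 (-6.76 ± 1.08), Dcn (-6.55 ± 1.03) and Adgre1 (-6.45 ± 0.48).

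In 209 genes day 3 lay at least 1 above sham, day 1 and day 7, with adjusted p under 0.05 in each contrast, and in 141 it was lower by at least 1 than all 3. Gpx2, Lcn2, S100a9, Crym, Fosl1, Mmp3, S100a8, Serpina3n, Srxn1, Il1r2, Socs3, Hspa1a, Hbegf, Cxcl2, Csrp3, Gal and Tac1 were among the first, and Lcat, Pamr1, Lum, Dcn, Igf1, Bmp6, Ogn, Tmem119, Col3a1, Abca1, Adgre1, Gpr34, P2ry12 and Ocln among the second. These contrasts share the 4 day 3 arrays.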

How the data were processed

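RNA of each cord was hybridized to 1 Affymetrix Rat Genome array. The deposited values are log2 expression levels, which the authors made with affy 1.12.2 and GCRMA, and their methods pre-process each time point separately. They were used as deposited. Probe sets with several symbols or none were left out of the fit of genes, and the brightest probe set stood for a gene. limma 3.58.1 in R 4.3.3 was fitted to the 24 arrays with 1 mean per group. Contrasts of day 3 with sham, day 1 and day 7, and of days 1, 7, 14 and 56 with sham, were tested with moderated variances. The Benjamini-Hochberg adjustment ran over 20826 probe sets. On simulated data of that size 74.6% of log2 changes of 1, 91.0% of changes of 2 and 100% of changes of 3 were recovered. These were 67, 67 and 66 changes, placed on day 3 alone in probe sets with a sham mean of at least 5, with normally distributed noise. The real data hold many more changes and many dimmer genes, for which recovery was not tested. Replicates are separate rats.

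Named genes are the 12 highest and 12 lowest against sham, and the 8 highest and 8 lowest against day 1 and against day 7, among genes with adjusted p under 0.05, no overlap and a mean of at least 5 in the higher group. To these come up to 6 called and 2 bright uncalled members per list, and genes said to be named after their values were seen. The members and the 50 lists were chosen with earlier results of these data known. Promoters are RefSeq's, of build GRCr8. Alternatives were other normalizations, filters, fits and arrays left out. The number of arrays limits the precision.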

Additional observations from a re-analysis of the deposited data

Results flagged for a closer look

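Of 512 sets of 4 values looked at for the named genes, 36 held 1 cord far from the other 3 by Dixon's test, which chance gives in about 1 of 20. In day 3 replicate 1 the values so placed were 3.27 for Asgr2, 9.25 for Cd74, 3.72 for Chat, 9.70 for Ctsc, 8.34 for Nrg1, 4.84 for Ppp1r1b, 4.82 for Rbp4, 10.98 for Slc12a5, 4.69 for Slc15a2 and 4.37 for Timp4. In day 3 replicate 2 the values so placed were 8.58 for Cxcl2, 9.82 for Gclm, 8.93 for Gpr37l1, 5.05 for Lcat and 12.72 for Vgf. In day 3 replicate 3 the value so placed was 7.64 for Gria3. In day 3 replicate 4 the value so placed was 11.95 for Tubb6. In sham replicate 1 the values so placed were 10.33 for C3, 8.65 for Cd74, 8.76 for Col3a1, 3.33 for Fabp4, 9.88 for Igf2, 7.07 for RT1-Da and 8.76 for Slc15a2. In sham replicate 2 the value so placed was 6.55 for Adcyap1. In sham replicate 3 the values so placed were 2.94 for Adam8, 2.29 for Apoc1, 10.56 for Atf4, 3.42 for Casp4, 6.26 for Foxj1, 11.58 for Scn1a and 12.21 for Slc12a5. In sham replicate 4 the values so placed were 5.30 for C3ar1, 5.40 for Chac1, 4.90 for Ifit3 and 2.38 for Plbd1.

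Some named genes were past the test against sham in opposite directions at 2 times, and the difference between the times was past the test as well. Higher than sham on day 3 and lower on day 1 were Fdps (1.67) and Slc2a3 (2.38), with the log2 difference of day 3 minus day 1 in brackets. Lower than sham on day 3 and higher on day 1 were Abca1 (-4.93), Adgre1 (-5.20), Ctsh (-1.53), Gpr34 (-4.04), Igf1 (-6.83) and Lum (-7.45), with the log2 difference of day 3 minus day 1 in brackets. Higher than sham on day 3 and lower on day 7 were Alas2 (6.79), Apln (3.86), Chac1 (4.50), Fdps (2.22), Gal (5.42), Hbb (2.38), Hspa1a (5.97), Slc2a3 (2.40) and Sqle (2.35), with the log2 difference of day 3 minus day 7 in brackets. Lower than sham on day 3 and higher on day 7 were Abca1 (-5.59), Adgre1 (-6.45), Col3a1 (-6.76), Ctsh (-2.24), Ctss (-1.70), Gpr34 (-4.31), Igf1 (-7.31), Lum (-8.05), Mx2 (-3.75), Ocln (-3.42), P2ry12 (-3.99) and Serping1 (-3.56), with the log2 difference of day 3 minus day 7 in brackets.

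Of 9780 probe sets with no gene symbol, 550 were higher on day 3 than in sham and 1350 were lower, 19.4% in all, and they were not analysed further.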

How the results depend on the processing

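Over the alternatives, genes higher on day 3 than in sham numbered 3018 to 3683 and genes lower numbered 1813 to 3176, the highest of these without day 3 replicate 1. With an array left out the ranges were 3018 to 3421 higher and 1916 to 3176 lower, and by at least 1 they were 1414 to 1605 and 805 to 970. Against day 1 they were 2099 to 2573 higher and 2114 to 3144 lower, and against day 7 they were 2056 to 2445 and 1552 to 1678. Median centring gave 3683 higher and 1813 lower, or 67.0% of calls higher. Day 3 and sham arrays of the same replicate number did not deviate together (r = -0.07 to -0.003), so the numbers were not taken as pairs, and the replicate block gave 3317 higher and 2287 lower, of which 3290 and 2233 were shared with the fit without it, and it moved no call of a named gene. Of 4826 recomputed changes of named genes 4754 kept their side of the threshold, 38 no longer passed, 34 newly passed and none reversed. Fitting only the 2 groups compared ended the call of Col3a1, Crh, Dcn, Il1b and Serping1 against sham and of Il6 and Il11 against day 1 (adjusted p = 0.10 and 0.079), and Aldoa, Aldoc, Cck, Chodl, Fgf9, Itih3, Mobp and Slc12a5 passed it, beside the neuronal genes given above. The cause of each was not tested, except that arrays of other groups then add nothing to the spread. With the mean of its probe sets the fall of Mx2 did not pass. Of 1400 recomputed counts of list members 1298 stayed within 1.5 times, and moves not given above were between counts of at most 3, or 3 and 5. The settings of these counts other than median centring and the filter on dim probe sets were chosen after seeing the data. Genes near background have only a bound on the size of a change.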
